A study of Mus musculus with 8 samples.

Results

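The integrated stress response and the unfolded protein response were followed through 38 genes in mouse epididymal fat with and without Atg3 in adipocytes. The genes were taken by name from a fixed list, and each was found once among the 37417 genes of the deposited table. They fall into 3 groups, 16 ATF4-type genes, 7 genes of serine and one-carbon metabolism and 15 genes of endoplasmic reticulum (ER) chaperones and quality control. Epididymal fat is the visceral pad beside the epididymis of male mice. RNA was sequenced from 4 wild-type mice (WT) and 4 knockout mice of strain C57Bl/6, all treated with tamoxifen and fed chow. Knockout mice had both Atg3 alleles floxed (Atg3 flox/flox) together with Adiponectin-Cre ERT2, a tamoxifen-dependent recombinase under a promoter active in adipocytes. Vessel, immune and stromal cells of the pad are not targeted by this promoter. The sources used here do not say how old the mice were, how long after tamoxifen tissue was taken, or whether wild-type mice carried the floxed allele or Cre. ATG3 joins LC3-family proteins to lipid on the growing autophagosome, and the series title places its loss after development.

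Cells answer amino acid shortage, mitochondrial trouble, haem deficiency or misfolded ER proteins by phosphorylating the translation factor eIF2α. General translation then slows while ATF4 protein is made, and ATF4 with its C/EBP partners switches on genes for amino acid supply, for feedback control and, if stress lasts, for cell death. In parallel the ER sensors IRE1 and ATF6 raise chaperones such as BiP through spliced XBP1 and cleaved ATF6. PERK, the other ER sensor, is a kinase of eIF2α. ATF4 is controlled mainly at translation and XBP1 by splicing, so gene-level counts report neither step directly. In fat, these pathways are known from obesity and from the release of the hormones FGF21 and GDF15.

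Total counts per library ran from 10986375 to 21688464, and levels are given as CPM, TMM-scaled to library size, with n = 4 libraries per genotype. Values for single libraries stand in the order of libraries 1 to 4. Differences are log2 fold changes (log2FC) of knockout against wild-type with their standard error (SE). Atg3 itself stood between 44.5 and 53.6 CPM in wild-type libraries and between 27.8 and 32.2 CPM in knockout libraries, so each library lay on the side of its label. All 12 adipocyte markers were detected in every library. Of these, 11 had a negative log2FC (median over the 12 -0.29, 0 called), and Adipoq (wild-type 2452 to 3995 CPM, knockout 2155 to 2372 CPM) and Slc2a4 (wild-type 169.9 to 261 CPM, knockout 75.9 to 148 CPM) did not overlap between genotypes. Transcripts foreign to fat were uneven between libraries. The 17 duct epithelium markers (Foxj1, Pax8, Epcam and others) summed to 14.8 to 32.7 CPM in wild-type libraries, while the knockout sums were 49.6, 572, 579 and 55.0 CPM. Elf3 was at 0 in the 4 wild-type libraries, and Pax8 was at 0 in wild-type library 2. Secretory genes of the male tract reached 216 CPM in knockout library 1 and 39.6 CPM in library 3, against 0.516 to 6.97 CPM in the other 6, with Sbp and Lcn9 at 0 throughout. Liver genes without Cyp2e1, which fat expresses strongly, gave knockout sums of 60.6, 18.7, 15.5 and 95.7 CPM, beside wild-type sums of 12.9 to 29.5 CPM, and from 0 to 4 of these 10 genes were at 0 in a library. The share of mitochondrial reads (3.05% to 4.93% in wild-type, 5.03% to 6.08% in knockout) and the sum of 6 endothelial markers (wild-type 1423 to 1680.0 CPM, knockout 1205 to 1373 CPM) also separated the genotypes, as the duct marker sum did. These measures and the 2 adipocyte markers thus move with any genotype difference, and their part in those below was not tested.

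Promoter letters of the members show the binding motifs by which the 2 responses are usually recognised. The windows ran from 250 bases before to 50 after the RefSeq start on build GRCm38.p6 and covered 35 of the 38 members, with 39 windows. The C/EBP-ATF response element (CARE, searched as TGATGNAA on both strands) is the site read by ATF4. It was found in 7 of 16 ATF4-type members, or 43.8%, in Pck2 and in Herpud1. Among all 32851 windows 3.97% hold it, and among all 27025 genes with a window 4.51%. Each stretch is 30 bases on the strand of its gene, in build GRCm38.p6, with the motif in capitals, and most matches read as the reverse complement. They lie between positions -200 (Vldlr) and 22 (Trib3) from the start. The ATF4-type carriers and Pck2 are shown because their levels are compared below.
Asns (chr6:7693214-7693243, minus strand): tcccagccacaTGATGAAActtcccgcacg
Atf3 (chr1:191183425-191183454, minus strand): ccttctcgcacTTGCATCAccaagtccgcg
Chac1 (chr2:119351038-119351067, plus strand): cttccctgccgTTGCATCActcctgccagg
Fgf21 (chr7:45615611-45615640, minus strand): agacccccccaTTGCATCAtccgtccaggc
Nupr1 (chr7:126625562-126625591, minus strand): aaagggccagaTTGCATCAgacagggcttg
Trib3 (chr2:152344028-152344057, minus strand): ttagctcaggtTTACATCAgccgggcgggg
Vldlr (chr19:27216809-27216838, plus strand): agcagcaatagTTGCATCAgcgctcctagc
Pck2 (chr14:55540152-55540181, plus strand): agccttcaaagTTACATCAgtatcttacag

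The ER stress response element (ERSE, searched on both strands as CCAAT, 9 bases of any kind and CCACG) is the site of ATF6 with NF-Y. It was found in 5 of the 12 ER members with a window, or 41.7%, and in no ATF4-type or serine member, against 0.119% of all windows. The related ERSE-II (ATTGG, any base, CCACG, both strands) was in Dnajb11 and Herpud1, or 16.7% of the same 12, against 0.0365% of all windows. ERSE-II holds the CCAAT block inverted and nearer to CCACG, and the 2 motifs did not overlap in these windows. The core TGACGTGG (both strands), read by XBP1, was in 0 member windows and in 0.676% of all windows. Stretches of the ER members follow, with the outer blocks of ERSE and the whole of ERSE-II in capitals.
Hspa5 (chr2:34772020-34772049, plus strand): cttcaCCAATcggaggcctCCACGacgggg
Hsp90b1 (chr10:86705527-86705556, minus strand): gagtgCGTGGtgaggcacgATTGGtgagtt
Hsp90b1 (chr10:86705632-86705661, minus strand): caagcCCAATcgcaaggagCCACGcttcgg
Pdia6 (chr12:17266486-17266515, plus strand): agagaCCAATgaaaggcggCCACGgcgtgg
Dnajc3 (chr14:118937822-118937851, plus strand): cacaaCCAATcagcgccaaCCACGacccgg
Creld2 (chr15:88819515-88819544, plus strand): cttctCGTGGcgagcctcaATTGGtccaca
Dnajb11 (chr16:22857843-22857872, plus strand): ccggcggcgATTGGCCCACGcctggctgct
Herpud1 (chr8:94386368-94386397, plus strand): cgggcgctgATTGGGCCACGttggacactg
The 2 Hsp90b1 lines are separate matches in 1 window. Many members are textbook targets of these factors, and a match describes letters only.

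No member passed the genotype test. With edgeR's quasi-likelihood test, adjusted over all 14800 tested genes, 0 of 38 members were called at an adjusted p of 0.05, where 0.405% of all tested genes were. All 38 passed the filter on low counts. At an unadjusted p under 0.05 stood 8 members, or 21.1%, against 16.2% of all tested genes. Of these 8, the knockout was higher in 6 (Trib3, Sesn2, Chac1, Mthfd2, Pck2 and Sdf2l1) and lower in 2 (Cebpg and Edem1), and of the 2394 such genes in all it was higher in 1261 and lower in 1133. Limma-voom called 0 members, and 45 of all 14800 tested genes. DESeq2 called 4, or 10.5%, against 5.61% of all genes it gave an adjusted p. These were Mthfd2, Trib3 and Pck2, higher in the knockout, and Cebpg, lower. Libraries of the genotypes did not overlap for Mthfd2, Trib3, Pck2 and Sdf2l1, higher in the knockout (10.5% of members, against 4.32% of all tested genes), and for Cebpg, lower (2.63%, against 4.54%). Median log2FC was 0.02 over the ATF4-type members, 0.21 over the serine and one-carbon members and -0.03 over the ER members, beside -0.01 over all tested genes. Positive values were seen in 8 of 16, 6 of 7 and 6 of 15 members, respectively, beside 7042 of all 14800 tested genes. Of the serine and one-carbon members with a positive value, Phgdh, Shmt2 and Aldh18a1 took the other sign when some libraries were left out. The ATF4-type median was of either sign when single libraries were left out, for example -0.11 without knockout library 3 and 0.09 without wild-type library 4.

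**Figure D1:**
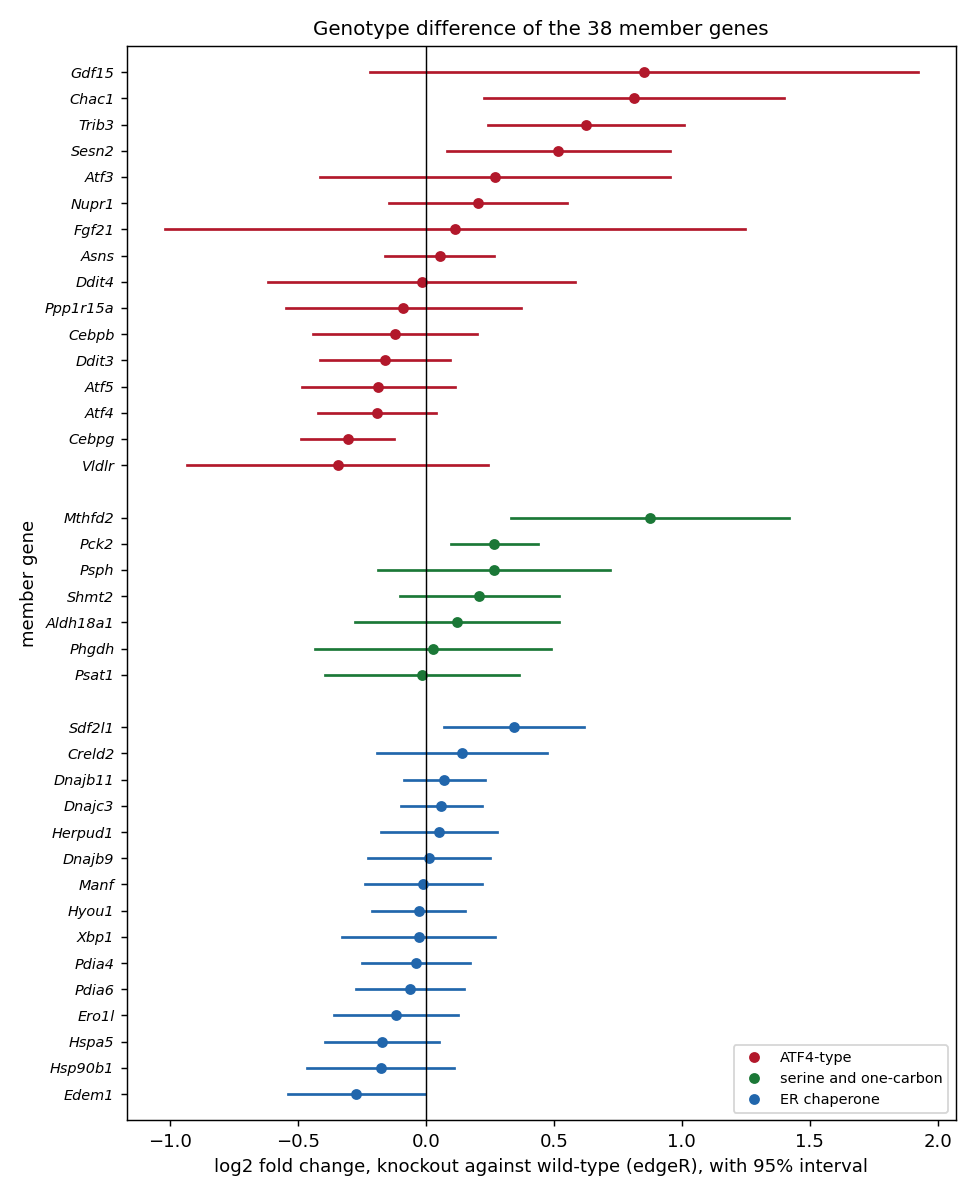
Log2 fold change of each of the 38 members, knockout against wild-type, from edgeR (x axis, points) with its 95% interval (lines), by group and ordered within it. The intervals of the ER members are short and close to 0, while those of Gdf15 and Fgf21, the least expressed members, are the widest.

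Among the transcription factors, Atf4, the effector of the response, had wild-type values of 173, 144, 138 and 138 and knockout values of 144, 125, 135 and 116 CPM (log2FC -0.19, SE 0.103, edgeR adjusted p = 0.399). Wild-type library 1 was the highest of all 8 and the groups overlapped. In bulk tissue, fewer cells of a type and less RNA per cell cannot be told apart in any of these levels. Ddit3 (CHOP), the factor linked to cell death under lasting ER stress, had wild-type values of 31.3, 28.4, 27.4 and 26.9 and knockout values of 30.6, 25.7, 22.9 and 22.9 CPM (log2FC -0.16, SE 0.112, edgeR adjusted p = 0.525), with knockout library 1 inside the wild-type range. Its gene model shares exonic bases with Mars on the opposite strand, and no source states whether strand was used in counting. Cebpg, a C/EBP partner of ATF4 (ENSMUSG00000056216, chr7:35046422-35056503, minus strand, mm10), showed the only downward separation. It had wild-type values of 145, 138, 156 and 130.2 and knockout values of 123, 119, 110.3 and 108 CPM, so every knockout library lay below every wild-type library (log2FC -0.31, SE 0.0804, edgeR adjusted p = 0.137). The ratio of knockout to wild-type was 0.809, with a 95% interval of 0.713 to 0.918. Atf5, a factor induced with ATF4 and tied to mitochondrial protein stress, had wild-type values of 98.7, 111, 125 and 142 and knockout values of 99.1, 109.6, 89.7 and 122 CPM (log2FC -0.19, SE 0.132, edgeR adjusted p = 0.533), with overlapping groups. Cebpb, a C/EBP factor of early adipogenesis, had a log2FC of -0.12 (edgeR adjusted p = 0.723). Nupr1, a small stress-induced chromatin protein, had a log2FC of 0.20 (edgeR adjusted p = 0.559) from a wild-type mean of 76.7 ± 13.4 CPM and a knockout mean of 88.3 ± 14.6 CPM, each ± SD with n = 4.

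Atf3, a stress-induced repressor, and Ppp1r15a (GADD34), the subunit that directs dephosphorylation of eIF2α, varied widely within wild-type fat. Atf3 had wild-type values of 29.8, 16.0, 12.3 and 12.0 and knockout values of 26.9, 15.4, 22.7 and 19.4 CPM (log2FC 0.27, SE 0.303, edgeR adjusted p = 0.710). Ppp1r15a had wild-type values of 42.6, 27.1, 24.8 and 21.0 and knockout values of 29.3, 25.6, 29.6 and 23.9 CPM (log2FC -0.09, SE 0.203, edgeR adjusted p = 0.867). Both were highest in wild-type library 1, and the same was seen for Cebpb, Ddit3, Atf4 and Xbp1. Among the wild-type libraries, library 1 was the highest for 7 of the 16 ATF4-type members. It was the lowest for 6, namely Atf5, Nupr1, Sesn2, Chac1, Vldlr and Fgf21. The 8 immediate early genes, which respond within minutes to handling of tissue, had wild-type sums of 1311, 488, 509.5 and 344 and knockout sums of 599, 505, 644 and 461 CPM, with none at 0 in any library. Wild-type library 1 was the highest there too, with Egr1 at 352 CPM against 33.5 to 156 CPM elsewhere. Without that library the log2FC of Atf3 was 0.65, and those of Ppp1r15a and Cebpb turned to 0.16 and 0.01. These genes were picked as highest in that library, so a rise in their log2FC follows from that choice. The part of the early response in these values was not tested.

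Feedback and metabolic regulators gave several of the larger differences in the ATF4-type group. Trib3, a pseudokinase that binds ATF4 and AKT (ENSMUSG00000032715, chr2:152337422-152344032, minus strand, mm10), had wild-type values of 13.5, 12.3, 13.1 and 12.7 and knockout values of 25.5, 17.7, 14.4 and 22.1 CPM. Wild-type libraries lay within a narrow band and each knockout library lay above it, with libraries 1 and 4 the highest (log2FC 0.63, SE 0.170, edgeR adjusted p = 0.141). The ratio was 1.54 (95% interval 1.18 to 2.01). Knockout libraries 1 and 4 were also those with the liver gene sums of 60.6 and 95.7 CPM, and the part of these in Trib3 was not tested. Without knockout libraries 2 and 3 the log2FC of Trib3 was 0.89, with no call. Those were its lowest knockout libraries, so a rise follows from leaving them out. Chac1, which degrades glutathione, had wild-type values of 5.59, 7.17, 11.9 and 6.74 and knockout values of 11.2, 11.3, 18.3 and 14.2 CPM (log2FC 0.81, SE 0.259, edgeR adjusted p = 0.180). Wild-type library 3 lay above knockout libraries 1 and 2, so the groups overlapped, although the ratio of 1.76 (95% interval 1.17 to 2.64) was among the largest of the members. Sesn2, a leucine sensor that restrains mTORC1, had wild-type values of 32.7, 53.0, 68.6 and 54.0 and knockout values of 66.9, 86.1, 71.9 and 73.5 CPM (log2FC 0.52, SE 0.193, edgeR adjusted p = 0.235), and only wild-type library 3 reached the knockout range. Ddit4 (REDD1), another brake on mTORC1, had wild-type values of 54.4, 53.8, 54.5 and 72.0 and knockout values of 30.7, 67.5, 84.1 and 49.5 CPM. Its knockout libraries spread on both sides of the wild-type ones, and the log2FC was -0.02 (edgeR adjusted p = 0.983). Without knockout library 1 it was 0.19, and without libraries 2 and 3 it was -0.53.

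**Figure D2:**
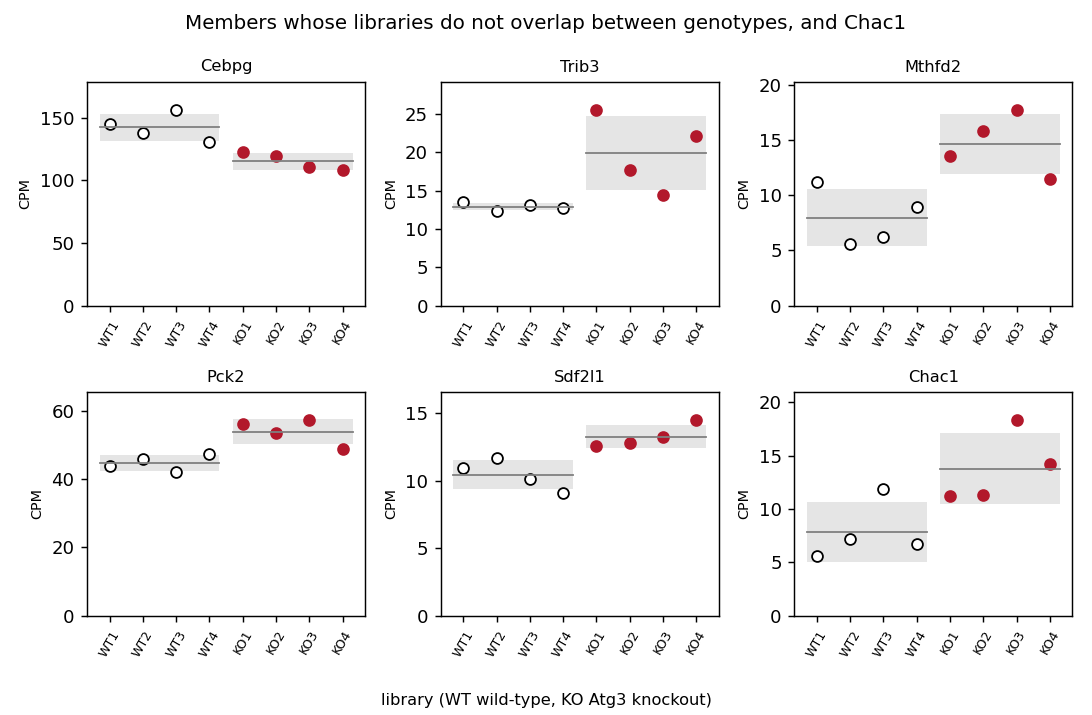
CPM (y axis, from 0) in each library (x axis) for the 5 members whose genotypes do not overlap and for Chac1. Open points are wild-type and filled points knockout libraries, the line is the group mean and the band 1 SD (n = 4). Trib3 runs from 12.3 to 13.5 CPM in wild-type libraries and from 14.4 to 25.5 CPM in knockout ones, and Chac1 overlaps through wild-type library 3.

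The remaining ATF4-type members are an enzyme, a receptor and the 2 hormones. Asns, asparagine synthetase and a standard readout of ATF4, had wild-type values of 78.3, 68.5, 73.6 and 79.0 and knockout values of 86.3, 73.7, 67.3 and 83.3 CPM. All wild-type values lay inside the knockout range (log2FC 0.05, SE 0.0942, edgeR adjusted p = 0.822, 95% interval of the ratio 0.896 to 1.20). Vldlr, the very-low-density lipoprotein receptor, had a wild-type mean of 111 ± 33.7 CPM and a knockout mean of 87.7 ± 24.7 CPM (SD, n = 4), a log2FC of -0.34 and an edgeR adjusted p of 0.559. Fgf21 was near the limit of detection, with 3, 15, 7 and 17 reads in wild-type libraries 1 to 4 and 4, 8, 18 and 20 reads in knockout libraries 1 to 4. In CPM these were 0.258, 0.882, 0.574 and 1.11 (wild-type) and 0.308, 0.593, 1.23 and 0.961 (knockout) (log2FC 0.11, SE 0.502, edgeR adjusted p = 0.936). A ratio anywhere from 0.493 to 2.38 lay within its 95% interval, so these data do not exclude a 2-fold difference either way. Gdf15 had wild-type values of 3.44, 1.94, 1.15 and 1.37 and knockout values of 4.00, 3.11, 5.79 and 1.39 CPM (log2FC 0.85, SE 0.474, edgeR adjusted p = 0.416). Knockout libraries 1 to 3 were high, but wild-type library 1 lay above knockout library 2, and knockout library 4 matched the low wild-type libraries. Without knockout libraries 2 and 3 its log2FC was 0.45, without wild-type library 1 1.24 and without knockout library 4 1.13.

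Serine synthesis makes serine from a glycolytic intermediate through PHGDH, PSAT1 and PSPH, and SHMT2 and MTHFD2 pass its carbon to folate in mitochondria. None of the 7 genes passed the test (0, against 0.405% of all tested genes), and 2 reached an unadjusted p under 0.05, where 16.2% of all tested genes did. Mthfd2, a mitochondrial folate enzyme that ATF4 is known to induce (ENSMUSG00000005667, chr6:83305691-83317606, minus strand, mm10), had wild-type values of 11.2, 5.58, 6.23 and 8.90 and knockout values of 13.5, 15.8, 17.7 and 11.5 CPM. Knockout library 4 lay just above wild-type library 1, the nearest pair, and the others were well apart (log2FC 0.88, SE 0.240, edgeR adjusted p = 0.142). The ratio of 1.84 (95% interval 1.26 to 2.67) was the largest point value among the members. It was highest in knockout libraries 2 and 3, those rich in duct epithelium transcripts. Without them the log2FC was 0.66, with no call, and a fall follows from leaving out its highest libraries. Pck2, the mitochondrial phosphoenolpyruvate carboxykinase (ENSMUSG00000040618, chr14:55540266-55550017, plus strand, mm10), had wild-type values of 43.9, 45.8, 42.0 and 47.2 and knockout values of 56.1, 53.6, 57.2 and 48.8 CPM. The separation was small but steady, with SDs of 2.26 and 3.75 CPM (log2FC 0.27, SE 0.0752, edgeR adjusted p = 0.147, ratio 1.20, 95% interval 1.07 to 1.35). Without knockout libraries 2 and 3 its log2FC was 0.24, close to the value from all libraries.

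The 3 enzymes of serine synthesis itself showed no such separation. Phgdh, the first enzyme, had wild-type values of 56.9, 84.4, 119 and 90.0 and knockout values of 91.3, 84.2, 74.1 and 107 CPM (log2FC 0.03, SE 0.204, edgeR adjusted p = 0.964). Psat1, the second, had wild-type values of 137, 169.7, 219 and 182 and knockout values of 174, 177, 135 and 213 CPM (log2FC -0.02, SE 0.168, edgeR adjusted p = 0.972). In both genes wild-type library 1 was low and library 3 high, and the knockout libraries fell within the wild-type range, except knockout library 3 for Psat1. The 95% intervals of the ratio were 0.741 to 1.40 for Phgdh and 0.760 to 1.29 for Psat1. Psph, the last step, had wild-type values of 10.1, 12.9, 13.9 and 13.4 and knockout values of 14.5, 12.8, 11.8 and 21.3 CPM, and knockout library 4 alone stood far above the wild-type range (log2FC 0.27, SE 0.200, edgeR adjusted p = 0.557). Without that library its log2FC was 0.05. Shmt2, the mitochondrial serine hydroxymethyltransferase, had wild-type values of 31.0, 23.9, 27.2 and 27.7 and knockout values of 26.9, 35.9, 37.2 and 27.0 CPM (log2FC 0.21, SE 0.137, edgeR adjusted p = 0.496). Aldh18a1, which starts proline synthesis, had a log2FC of 0.12 (edgeR adjusted p = 0.781). The 12 adipocyte markers, none at 0, had wild-type sums of 46941, 49118, 64062 and 53234 and knockout sums of 49585, 45927, 40115 and 49880.5 CPM. Phgdh kept the order of these sums within each genotype, and so did Psat1 except for knockout libraries 1 and 2, a likeness picked out after the values were seen. The part of adipocyte share in these 2 genes was not tested.

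**Figure D3:**
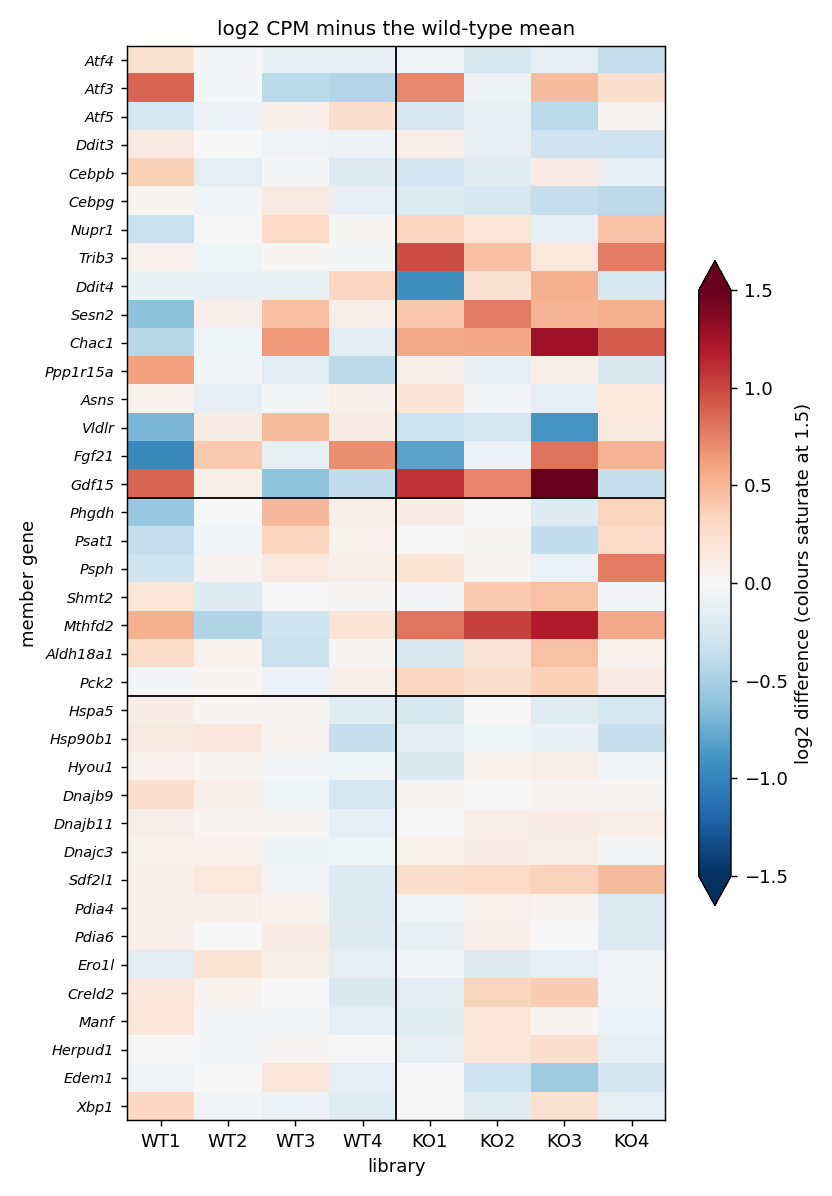
Log2 CPM (prior count 2) of each member (y axis) in each library (x axis) minus the mean of the 4 wild-type libraries, in colour. Horizontal lines separate the ATF4-type, serine and one-carbon, and ER members, and the vertical line the genotypes. Trib3, Chac1 and Mthfd2 are above 0 in all knockout libraries, with Trib3 faint in library 3, and among ER members Sdf2l1 is above 0 in all 4 and Edem1 is lowest in library 3. The highest value is 1.60, and 1 value lies beyond the colour scale.

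ER chaperones and quality control genes differed little between the genotypes. Hspa5 (BiP), the main Hsp70 chaperone of the ER (ENSMUSG00000026864, chr2:34771970-34776531, plus strand, mm10), had wild-type values of 448, 421, 423 and 364 and knockout values of 350.2, 414, 363 and 344 CPM. Knockout libraries 1, 3 and 4 lay below the lowest wild-type library, and library 2 lay within the wild-type values (log2FC -0.17, SE 0.0986, edgeR adjusted p = 0.433, 95% interval of the ratio 0.761 to 1.04). Hsp90b1 (GRP94), the ER Hsp90, had wild-type values of 526, 539, 499 and 378 and knockout values of 432, 461, 448 and 379 CPM, with wild-type library 4 the lowest of all 8 (log2FC -0.18, SE 0.127, edgeR adjusted p = 0.541). Its model shares exonic bases with small same-strand models, so a part of its reads is uncertain. Dnajb9 (ERdj4), an Hspa5 co-chaperone induced by spliced XBP1, had wild-type values of 50.1, 44.1, 40.0 and 35.0 and knockout values of 43.0, 42.1, 43.0 and 42.5 CPM (log2FC 0.01, SE 0.106, edgeR adjusted p = 0.969). Knockout values were almost equal to each other, with a coefficient of variation of 1.07% against 15.2% in wild-type, and lay inside the wild-type range. The reverse held for Herpud1, an ER degradation adaptor that carries CARE and ERSE-II, at 14.2% against 1.36%. Xbp1, the factor downstream of IRE1, had wild-type values of 308, 243, 235 and 221 and knockout values of 250.5, 219.8, 292 and 225 CPM (log2FC -0.03, SE 0.132, edgeR adjusted p = 0.940), and its splicing cannot be read from these counts.

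Sdf2l1, a partner of ER Hsp40 chaperones and a sensitive target of the unfolded protein response, was the exception in this group. It had wild-type values of 10.9, 11.6, 10.1 and 9.10 and knockout values of 12.5, 12.8, 13.2 and 14.5 CPM and did not overlap (log2FC 0.35, SE 0.121, edgeR adjusted p = 0.211). The ratio was 1.27 (95% interval 1.05 to 1.54), and it was 0.38 on the log2 scale without knockout libraries 2 and 3. For the other 14 ER members the whole 95% interval of the ratio lay within 1.5-fold of equality. That held for 8 of 16 ATF4-type and 5 of 7 serine and one-carbon members. Edem1, a lectin that hands misfolded glycoproteins to degradation, reached an unadjusted p under 0.05 in the other direction, with wild-type values of 146, 151, 171 and 136 and knockout values of 149.5, 122, 104 and 125 CPM. Knockout library 1 lay within the wild-type range (log2FC -0.27, SE 0.118, edgeR adjusted p = 0.300). The oxidoreductases Pdia4 and Pdia6 had log2FC of -0.04 and -0.06, the oxidase Ero1l that recharges them -0.12, and the large chaperone Hyou1 -0.03 (edgeR adjusted p from 0.642 to 0.899). Dnajb11 and Dnajc3, Hsp40 co-chaperones, had 0.07 and 0.06. The secreted stress proteins Manf and Creld2 had -0.01 and 0.14, and Herpud1 0.05 (edgeR adjusted p from 0.661 to 0.971 over these 5). Manf overlaps a same-strand and an opposite-strand gene model, and its count is uncertain.

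**Figure D4:**
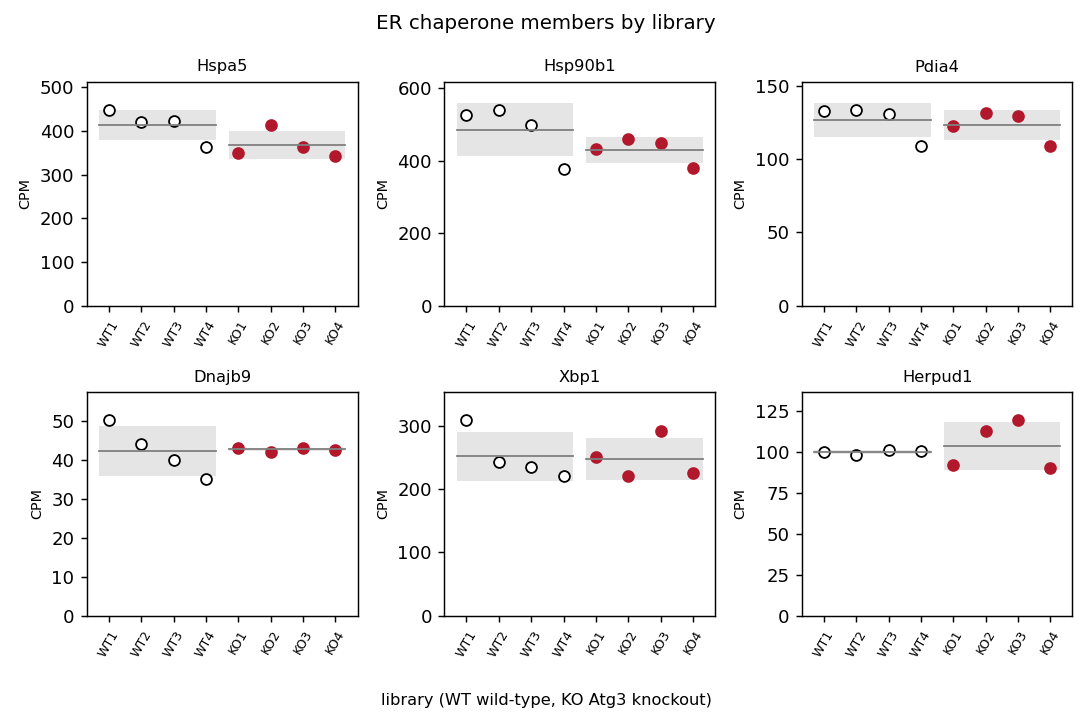
CPM (y axis, from 0) in each library (x axis) for 6 ER members. Open points are wild-type and filled points knockout libraries, with the group mean (line) and 1 SD (band, n = 4). Hspa5 runs from 364 to 448 CPM in wild-type libraries and from 344 to 414 CPM in knockout ones, and the other 5 genes overlap as well.

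Several ER members were low in library 4 of either genotype. Of the 15, 12 were lowest among wild-type libraries in library 4, all but Ero1l, Dnajc3 and Herpud1. Among knockout libraries 6 were lowest in library 4, namely Hspa5, Hsp90b1, Dnajc3, Pdia4, Pdia6 and Herpud1, and 5 were lowest in library 1, namely Hyou1, Dnajb11, Sdf2l1, Creld2 and Manf. Plasma cells, which secrete antibody and have an extended ER, make much of these chaperones. Their 8 markers, none at 0, had wild-type sums of 4865, 5744, 5837 and 2983 and knockout sums of 6337, 4817, 6445 and 3402 CPM, so the lowest sums were in library 4 of each genotype, while knockout library 1 had one of the highest. The antibody joining chain gene Igj had 806, 609, 626 and 195 CPM in wild-type and 394, 324, 560.3 and 160.4 CPM in knockout libraries. Ighm, Igkc, Irf4 and Pou2af1 were likewise lowest in library 4 of each genotype. The other markers did not keep this order. Sdc1 was highest in wild-type library 4 (33.5 CPM). Sdc1, Prdm1 and Tnfrsf17 were lowest in knockout library 2 (25.2, 7.85 and 0.815 CPM). The part of plasma cells in the ER values was not tested.

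Among the knockout libraries, some members were highest in the 2 rich in epithelial transcripts and others were lowest there. Shmt2, Aldh18a1, Creld2 and Herpud1 were each highest, among the knockout libraries, in libraries 2 and 3, where the duct markers summed to 572 and 579 CPM. So were Mthfd2 and Ddit4. The same held for Hspa5, Hsp90b1, Hyou1, Dnajb11, Dnajc3, Pdia4, Pdia6 and Manf, named above as lowest in knockout library 1 or 4. The order was the reverse, with libraries 1 and 4 the highest, for Trib3, Asns, Nupr1, Phgdh, Psph, Ero1l and Edem1. Neither order was counted over all tested genes. Both describe knockout libraries only, and Hspa5 in knockout library 3 (363 CPM) lay below every wild-type library (364 to 448 CPM). Herpud1 had wild-type values of 99.9, 98.3, 101 and 101 and knockout values of 92.1, 113, 119.5 and 90.3 CPM, so knockout libraries 2 and 3 lay above and libraries 1 and 4 below the wild-type range. Creld2 had wild-type values of 25.5, 23.4, 22.4 and 19.3 and knockout values of 20.2, 28.4, 29.5 and 21.7 CPM. Aldh18a1 had wild-type values of 17.4, 14.9, 11.4 and 14.5 and knockout values of 12.2, 16.5, 19.6 and 14.9 CPM. Without knockout libraries 2 and 3 the log2FC was -0.02 for Shmt2, -0.09 for Aldh18a1, -0.10 for Creld2 and -0.12 for Herpud1, each of the other sign. These 4 were picked as high in those libraries, so a fall in their log2FC follows from that choice. The difference of Cebpg (-0.29) and that of Sdf2l1 (0.38) kept their direction. None of the 6 was called then (0), in a setting where few of all tested genes were (number given below). The part of the epithelial transcripts was not tested.

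**Figure D5:**
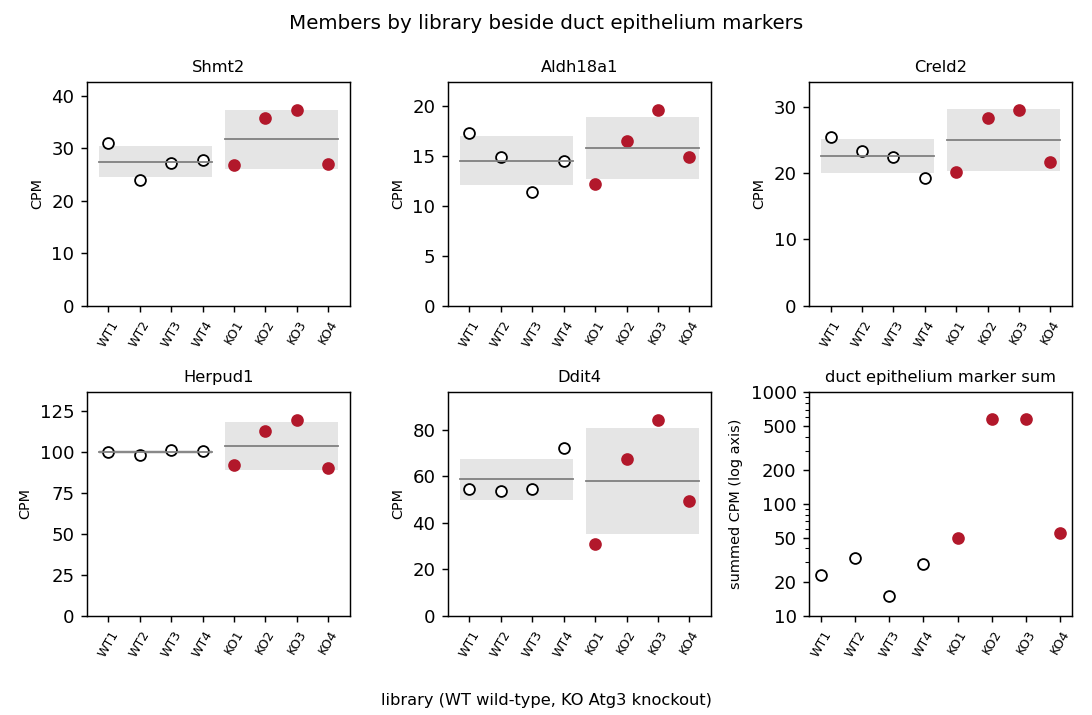
CPM (y axis, from 0) in each library (x axis) for 5 members, and the summed CPM of 17 duct epithelium markers (last panel, log axis). Open points are wild-type and filled points knockout libraries, with the group mean (line) and 1 SD (band, n = 4). Shmt2, Aldh18a1, Creld2, Herpud1 and Ddit4 are higher in knockout libraries 2 and 3 than in 1 and 4, and the marker sums are 572 and 579 CPM against 49.6 and 55.0 CPM.

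Of the 9 members with CARE, 8 had a positive log2FC and 1 a negative one, and the 5 with ERSE were split. Positive values numbered 20 among all 38 members and 7042 among all 14800 tested genes. The positive values of Fgf21, Asns and Herpud1 took the other sign when some libraries were left out. Of the 7 ATF4-type carriers of CARE, Chac1 (0.81), Trib3 (0.63), Atf3 (0.27), Nupr1 (0.20), Fgf21 (0.11) and Asns (0.05) had positive log2FC and Vldlr (-0.34) a negative one, and Pck2 (0.27) and Herpud1 (0.05) were positive. Pck2 and Trib3, whose matches carry the letters TTACATCA, were the 2 carriers without overlap between genotypes, a property picked out after the values were seen. The 5 ERSE carriers had -0.17 (Hspa5), -0.18 (Hsp90b1), -0.06 (Pdia6), 0.06 (Dnajc3) and 0.14 (Creld2), with the 95% interval of each ratio inside 1.5-fold. Mthfd2 and Sdf2l1, which also did not overlap between genotypes, had none of the 4 motifs in this window.

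Levels per length put 2 ER chaperones highest. On the FPKM scale (reads scaled to gene length and library size) wild-type fat held 120.4 ± 18.3 of Hsp90b1 and 118 ± 10.0 of Hspa5 (SD, n = 4), 2 neighbours closer than their spread. Atf4 (86.1 ± 9.68) and Xbp1 (77.5 ± 12.0) followed, also closer than their spread, then Atf5 (59.9 ± 9.40) and Pdia4 (51.1 ± 4.71). Of the serine genes Psat1 (41.6 ± 7.97) and Phgdh (35.2 ± 10.2) led. At the low end stood Aldh18a1 (3.66 ± 0.616), Mthfd2 (2.93 ± 0.946), Gdf15 (1.07 ± 0.557) and Fgf21 (0.760 ± 0.400). Wild-type libraries varied least for ER members, with a median coefficient of variation of CPM of 9.23%, against 16.8% for serine and one-carbon members, 18.0% for ATF4-type members and 14.0% for all tested genes.

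The rest of the pathway was read from 9 lists with 160 symbols, of which 154 genes were tested. With edgeR 0 passed an adjusted p of 0.05, where 0.405% of all tested genes did. An unadjusted p under 0.05 was held by 23, or 14.9%, against 16.2% of all tested genes. The knockout was higher in 17 of these and lower in 6, beside 1261 and 1133 among all tested genes. Of the 21 tested sensors and eIF2 regulators, Ppp1r15b (CReP), the constitutive partner of the eIF2α phosphatase, had the lowest adjusted p, with a wild-type mean of 143 ± 21.2 CPM and a knockout mean of 106 ± 8.58 CPM (SD, n = 4; log2FC -0.44, edgeR adjusted p = 0.135). Its libraries did not overlap. Nor did those of Atf6, the ER-bound factor (log2FC -0.20, edgeR adjusted p = 0.206), which was lower. Creb3l1, another ER-bound factor, had the largest log2FC of the list and no overlap in the other direction (log2FC 0.54, edgeR adjusted p = 0.145), while PERK (Eif2ak3, log2FC -0.03) and IRE1 (Ern1, -0.11) overlapped. Amino acid transporters had the highest median log2FC of the 9 lists, 0.35 over 10 genes, 6 of them positive. Slc7a5, the large neutral amino acid transporter, led them with a wild-type mean of 11.6 ± 2.99 CPM and a knockout mean of 24.0 ± 9.51 CPM (SD, n = 4; log2FC 1.05, edgeR adjusted p = 0.149). Its knockout libraries 1 to 4 held 13.5, 34.1, 29.7 and 18.7 CPM, again highest in the libraries rich in duct markers.

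The list of 21 other serine, glycine and folate genes also holds the aminotransferases Got1 and Gpt2, the proline enzymes Pycr1 and Aldh4a1 and the cysteine-making enzymes Cth and Cbs. Its median log2FC was 0.10. In this list Got1, cytosolic aspartate aminotransferase, had a wild-type mean of 11.4 ± 0.622 CPM and a knockout mean of 18.4 ± 3.41 CPM (SD, n = 4; log2FC 0.69, edgeR adjusted p = 0.0926), without overlap. Knockout values of Got1 were 14.6, 21.3, 21.2 and 16.3 CPM, also highest in libraries 2 and 3. The 19 genes of the aminoacyl-tRNA synthetase list, many of them ATF4 targets, lay close to 0 and include the tRNA exporter Xpot. Their log2FC ran from -0.12 to 0.12 with a median of 0.03, 0 had an unadjusted p under 0.05, and Gars had the lowest adjusted p (log2FC -0.12, edgeR adjusted p = 0.471). Of 11 other ATF4 targets Stc2, a secreted glycoprotein, was lower in each knockout library, with a wild-type mean of 42.3 ± 3.26 CPM and a knockout mean of 30.6 ± 4.65 CPM (SD, n = 4; log2FC -0.46, edgeR adjusted p = 0.127). Other ER folding genes had a median of 0.01 over 21, led by the prolyl isomerase Fkbp2 (log2FC 0.35, edgeR adjusted p = 0.138). Median log2FC was 0.06 over 18 ER degradation genes. It was 0.11 over the 21 genes of the translocation list, which also holds the vesicle coat genes Sec24d and Sec31a. In that list the signal recognition receptor subunit Srprb led (log2FC 0.22, edgeR adjusted p = 0.227). The 12 mitochondrial chaperones and proteases, targets of the mitochondrial unfolded protein response, had a median of 0.06 and 0 genes at an unadjusted p under 0.05, with Clpp, a matrix protease subunit, lowest in adjusted p (log2FC 0.17, edgeR adjusted p = 0.400).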

How the data were processed

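Polyadenylated RNA of 4 wild-type and 4 Atg3 knockout fat pads was sequenced as stranded libraries with single reads, per the labels' protocols. Novoalign 2.8.1, Picard and build mm10 are listed without a role, per the submitters' processing notes, and no counting program is named there. The authors deposited read counts per gene, whole numbers with unequal totals (10986375 to 21688464), taken as raw. The FPKM values, per the file headers, were used only as a check: all 158499 values above 0 equal the count scaled by exonic length and library total within 0.1%. Reported CPM and FPKM were computed from the counts.

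Genes were filtered with filterByExpr (minimum count 10, 14800 of 37417 kept), scaled by TMM and tested with edgeR 4.0.16 in R 4.3.3 (glmQLFTest, no covariate, Benjamini-Hochberg over all genes, 0.05). The filter sets library sizes to the kept genes. SE and 95% intervals were derived from the test statistic. The script was tested on simulated data. P-values set the genotype difference against the spread between these mice, which is estimated in part from all genes. Alternatives were RLE and library-total scaling, no filter, DESeq2 1.42.0, limma-voom (limma 3.58.1), the replicate number as a block, and libraries left out.

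The members, lists and alternatives were chosen with earlier results of these data known. Values per library were printed for the 4 lowest adjusted p and the 2 highest FPKM of each group and for set key genes, plus members that moved with marker sums, chosen after their values were seen. Of each pathway list the gene with the lowest adjusted p was named, except 1 that is not reported here, and Atf6, Eif2ak3, Ern1 and Creb3l1 besides it, the last chosen after its values were seen. Marker lists of macrophages, mesothelium, endothelium and fibroblasts were also measured, with sums of 864 to 1386 and 954 to 1461 CPM in wild-type and knockout libraries for macrophages, 63.2 to 248 and 111 to 320.5 CPM for mesothelium, 1423 to 1680.0 and 1205 to 1373 CPM for endothelium and 3202 to 4593 and 2675 to 4093 CPM for fibroblasts. Of 301 listed symbols 294 were found. Exonic overlaps come from GENCODE M21 (GRCm38), in which Atf5, Ddit3, Cebpb, Ppp1r15a, Shmt2, Hsp90b1, Pdia4, Pdia6 and Manf share bases with another gene, and Phgdh has a pseudogene; these counts are uncertain. Starts in the file were converted to 1-based positions. Counts without molecular identifiers carry counting error besides the spread between mice.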

Additional observations from a re-analysis of the deposited data

Results flagged for a closer look

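Of 76 groups of 4 libraries (38 members in 2 genotypes), 3 held a library set apart from the other 3 by more than Dixon's 95% critical value, where chance flags about 1 in 20 groups. Ddit4 stood at 72.0 CPM in wild-type library 4, against 53.8 to 54.5 CPM in the other wild-type libraries. Dnajb11 stood at 62.3 CPM in knockout library 1, against 66.6 to 67.4 CPM in the other knockout libraries, a small gap in a tight group. Pdia4 stood at 109 CPM in wild-type library 4, against 131 to 134 CPM in the other wild-type libraries, and knockout library 4 held 109 CPM.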

How the results depend on the processing

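No member was called in any edgeR or limma-voom setting (0 of 38; the lowest adjusted p outside DESeq2 was 0.0897, for Trib3 without knockout libraries 2 and 3), and DESeq2 called 4. Of the 38 members, 22 kept the sign of their log2FC in all 15 alternatives and 16 had the other sign in at least 1. The number of all genes called, 60, was 14 with the replicate block, 45 with limma-voom and 813 with DESeq2. Without knockout libraries 2 and 3 the number was 3 (1294 had an unadjusted p under 0.05). It ran from 0 to 290 when single libraries were left out. It was 7, 4, 20 and 8 without wild-type libraries 1 to 4, and 290, 0 and 23 without knockout libraries 1 to 3 (edgeR; beside the 0, 1573 had an unadjusted p under 0.05). The sources used here do not say whether replicate numbers pair the mice. Same-numbered libraries had deviations correlated between -0.25 and 0.18, and other pairs between -0.33 and 0.28. So few pairs cannot settle whether the mice were paired. With the replicate block (edgeR, 14 genes) 0 members were called and the 3 group medians were 0.00, 0.20 and -0.03. The ATF4-type median log2FC, 0.02, was -0.092 without knockout libraries 2 and 3 and ran from -0.11 to 0.087 when single libraries were left out; that of the serine and one-carbon members, 0.21, ran from 0.13 to 0.25. The ER median, -0.03, was -0.11 without knockout libraries 2 and 3 and ran from -0.07 to 0.05 when single libraries were left out. For scale, the mean log2 CPM of the ER members had an SD between libraries of 0.114 in wild-type and 0.0672 in knockout. The cause of the shifts in these medians was not tested. The median over all genes stayed within -0.01 and 0.01 in these settings. Counts were lowest for Fgf21, with 3 to 20 reads per library, and Gdf15, with 14 to 85.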
